A study of Mus musculus with 5 samples.

Results

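Triplet therapy was compared with the doublet of anti-CD40 plus anti-CTLA-4, so that the treatments differed by anti-PD-1 alone. A barcode was taken as a cell when it reached 500 UMIs and 300 genes with no more than 10% of its UMIs mitochondrial, and the cells compared were those that fell into clusters named from marker genes as T cells, phagocytes (monocytes and macrophages), dendritic cells, neutrophils or tumour cells. These 5 classes held 9393 of the 21121 cells kept in the Triplet and CD40plusCTLA4 libraries, and 52408 cells were kept in all 5 libraries of the study. The CD40plusCTLA4 library gave 5216 of the 9393 cells and the Triplet library 4177.

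All libraries came from Balb/c mice carrying subcutaneous tumours of Renca, a mouse renal cortical adenocarcinoma cell line. Mice in the CD40plusCTLA4 group received 200 µg each of agonist anti-CD40 (clone FGK4.5) and anti-CTLA-4 (clone 9H10), and mice in the Triplet group received the same antibodies plus 200 µg of anti-PD-1 (clone RMP1-14). Both groups were dosed 2 times into the peritoneum from day 10, and tumour tissue was collected 24 h after dose 2. Tumours of 3 mice were pooled per group, and sorted T cells, other CD45+ cells and CD45- cells were mixed 2:1:1 before 10x 5' single-cell RNA sequencing. Each treatment is therefore 1 library: differences below have no replicate check and no test, and the intervals given (95%, exact) cover counting error only. The vehicle library (PBS) and the PD1plusCTLA4 and PD1plusCD40 libraries are quoted beside some genes.

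PD-1 is an inhibitory receptor that T cells display after activation, and its ligand PD-L1 (Cd274) is made by tumour, myeloid and dendritic cells. CTLA-4 is the other classical checkpoint receptor; it competes with CD28 for CD80 and CD86 and is abundant on regulatory T cells. CD40 is a receptor of the TNF family on dendritic cells, macrophages and B cells; its engagement activates NF-kB and matures dendritic cells.

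The libraries differed in make-up before any gene was compared. The CD40plusCTLA4 library held 16389 cells at a median of 1827 UMIs and the Triplet library 4732 cells at a median of 13124 UMIs. For each library 10000 cells were loaded, fewer than the barcodes taken as cells in CD40plusCTLA4. In CD40plusCTLA4 63.6% of cells (62.8 to 64.3%) stayed unnamed, against 10.9% (10.0 to 11.8%) in Triplet. Most of the unnamed CD40plusCTLA4 barcodes, 9628 of them, lay in shallow clusters led by phagocyte genes. How many of these are intact cells was not tested. The deposited Triplet matrix lists only barcodes with 500 or more UMIs, whereas the CD40plusCTLA4 matrix lists 1751343 barcodes, so the same filter was applied to both. Within the named classes depth was closer: median UMIs were 2369 and 2618 in T cells, 12728 and 15670 in phagocytes, and 30779.5 and 28964 in tumour cells (CD40plusCTLA4, then Triplet, the order used throughout). The libraries shared 14 cell barcodes. Of the named immune cells other than T cells, phagocytes made up 82.3% (81.2 to 83.3%) and 88.4% (87.1 to 89.6%), and NK cells 4.83% (4.26 to 5.46%) and 0.679% (0.403 to 1.07%). These shares depend on which clusters could be named.

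Levels are given as CPM, a gene's UMIs relative to all UMIs of that class in the library. Differences are log2 values of CPM + 5, Triplet minus CD40plusCTLA4, so a negative value is lower in Triplet. A gene was counted if it reached 20 CPM and 20 UMIs in its higher library, and was called past 2-fold where the log2 difference reached 1 either way and the interval of the ratio left out 1.

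Tumour cells carried less RNA of interferon-response, antigen-presentation, chemokine and NF-kB genes in Triplet. Cells of both libraries lay in 1 cluster, 80 and 386 of them, led by Wfdc2, Krt8, Cryab and Krt18. Of 21 tumour markers, 19 and 21 were detected, summing to 14015 and 18701 CPM. Of 7020 counted genes, 133 (1.89%) were past 2-fold higher in Triplet and 152 (2.17%) lower, and the median over all counted genes was 0.11. For 72 of the 152 lower genes another class of the same library had over 5 times the level. The split was 158 higher and 27 lower with cells thinned to 1000 UMIs, and 167 and 105 with phagocyte RNA subtracted.

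The interferon-gamma list (32 genes, 30 measured) had a median of -0.81, with 26 members below 0 and 4 above. Past 2-fold lower were 9 of its 23 counted members and past 2-fold higher 0. They were the T cell-attracting chemokines Cxcl9 and Cxcl10, the guanylate-binding proteins Gbp2b, Gbp3, Gbp4 and Gbp5, the nitric oxide synthase Nos2, the adhesion molecule Icam1 and the serine protease inhibitor Serpina3g. The type I interferon list (26 measured) had a median of -0.80, with 22 below 0; 9 of 18 counted members were past 2-fold lower, namely Isg15, Ifit1, Rsad2, Irf7, Ifi44, Isg20, Phf11d, Rtp4 and Zbp1. With cells thinned to 1000 UMIs Ifi44 was at 0.27. The lists share some inducers and were chosen with results of these data in view.

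To show what these genes have upstream, 250 bases before the transcription start were taken from RefSeq (GRCm38.p6) for 14 of the 18 genes just named that the table holds. They are printed 5′ to 3′ along the gene. Capitals mark matches to the interferon-stimulated response element, searched as GAAA, then NN, then GAAA (N being any base), and to the gamma-activated site, searched as TTCNNNGAA, on both strands. The Isg15 window is chr4:156200819-156201068 (minus strand), Cxcl10 chr5:92348890-92349139 (minus), Rsad2 chr12:26456453-26456702 (minus) and Gbp5 chr3:142496684-142496933 (plus).
Isg15: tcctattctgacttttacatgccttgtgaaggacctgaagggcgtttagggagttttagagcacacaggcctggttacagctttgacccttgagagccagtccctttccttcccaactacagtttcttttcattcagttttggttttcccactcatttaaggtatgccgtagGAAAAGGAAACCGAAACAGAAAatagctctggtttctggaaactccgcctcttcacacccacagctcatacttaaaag
Cxcl10: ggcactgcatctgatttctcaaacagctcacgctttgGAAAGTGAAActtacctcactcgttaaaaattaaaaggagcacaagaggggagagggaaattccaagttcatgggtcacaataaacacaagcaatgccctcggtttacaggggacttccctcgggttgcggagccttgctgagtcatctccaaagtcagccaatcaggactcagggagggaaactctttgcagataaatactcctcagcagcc
Rsad2: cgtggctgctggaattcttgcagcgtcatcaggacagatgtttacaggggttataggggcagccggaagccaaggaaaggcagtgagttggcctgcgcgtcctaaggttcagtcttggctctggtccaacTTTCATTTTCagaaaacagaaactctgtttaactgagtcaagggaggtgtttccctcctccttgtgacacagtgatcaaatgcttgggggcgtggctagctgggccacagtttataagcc
Gbp5: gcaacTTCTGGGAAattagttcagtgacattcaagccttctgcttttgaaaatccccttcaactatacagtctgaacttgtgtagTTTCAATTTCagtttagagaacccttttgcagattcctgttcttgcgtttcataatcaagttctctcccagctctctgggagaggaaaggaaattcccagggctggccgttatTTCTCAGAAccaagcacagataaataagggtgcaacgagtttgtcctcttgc
Isg15 carries 3 overlapping matches of the first motif, 78 to 57 bases before the start. Cxcl10 has 1, 213 to 204 bases before it, and Rsad2 has 1 on the opposite strand, 120 to 111 bases before it. Gbp5 has 1 match of the first motif on the opposite strand and 2 of the second. The first motif was found for 7 of the 14 genes and in 978 of all 32851 windows of that length (2.98%). The second was found for 4 genes and in 2306 windows (7.02%). A gene was counted if any of its windows matched, so the gene and window shares are not alike. A match is a description of the letters and not a measured binding site.

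Isg15, a ubiquitin-like protein made after interferon, was at 581.2 CPM (551.9 to 611.7) and 223.6 CPM (215.3 to 232.1), a log2 difference of -1.36 and a ratio of 0.361 to 0.410. Nearly every tumour cell carried it, 98.8% and 96.4%, and no cell held more than 6.66% of its UMIs. PBS, PD1plusCTLA4 and PD1plusCD40 tumour cells had 284.3, 283.8 and 426.6 CPM, so Triplet was the lowest of the 5 libraries and CD40plusCTLA4 the highest. Irf7, the transcription factor that amplifies type I interferon, was at 89.69 and 23.98 CPM (-1.71), and Rsad2, the antiviral protein viperin, at 49.0 and 8.839 CPM (-1.96).

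Cxcl10 was at 271.5 CPM (251.5 to 292.5) and 16.37 CPM (14.18 to 18.8), a log2 difference of -3.69. Cxcl9 was at 190.5 CPM (173.8 to 208.2) and 19.4 CPM (17.01 to 22.03), a difference of -3.00. Both were uneven between cells: 1 cell held 32.0% and 32.5% of the Cxcl10 UMIs and 28.6% and 30.8% of the Cxcl9 UMIs. Without that cell Cxcl10 stood at 187.6 and 11.07 CPM and Cxcl9 at 138.2 and 13.47 CPM. Cxcl9 was found in 32 of 80 and 30 of 386 tumour cells and Cxcl10 in 35 and 37, at nearly equal depth. Cxcl9 was at 1.234 CPM in PBS, 20.31 in PD1plusCTLA4 and 118.4 in PD1plusCD40.

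Antigen presentation split by class. All 11 MHC class II genes were below 0 (median -1.37): the alpha chain H2-Aa was at 408.6 and 140.4 CPM (-1.51) and the invariant chain Cd74 at 1084 and 417.5 CPM (-1.37), and 8 of 9 counted were past 2-fold lower. For 7 of those 8 another class of the same library had over 5 times the level. MHC class I presentation was less displaced (median -0.59, 19 of 22 below 0); only Psmb10, a subunit of the immunoproteasome, was past 2-fold, at 205.9 and 94.69 CPM (-1.08). H2-K1, a classical heavy chain, was at 1895 and 1352 CPM (-0.49). PD-L1 (Cd274) itself was at 21.73 CPM (16.37 to 28.29) and 27.74 CPM (24.87 to 30.86), a ratio of 0.958 to 1.73, and did not differ beyond counting error.

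Myeloid RNA moved with these genes. Lyz2, a phagocyte lysozyme, was at 1336 and 392.9 CPM in tumour cells, which is 8.39% and 3.6% of its level in the phagocytes of the same library, and C1qa stood at 9.84% and 4.02%. H2-Aa reached 14.8% and 4.73% of the phagocyte level and Cxcl9 94.6% and 8.1%, while Isg15 was above it in both libraries at 320% and 184%. With phagocyte RNA subtracted at the Lyz2 ratio, the list medians were -0.81 for interferon-gamma, -0.77 for type I interferon, -1.55 for MHC class II and -0.53 for MHC class I. With cells thinned to 1000 UMIs the interferon medians were -0.43 for both lists and that of MHC class II was -1.64, while the median of all counted genes moved from 0.11 to 0.41. The part of RNA from other sources in these differences was not tested.

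NF-kB and CD40 target genes had a median of -0.93, with 19 of 20 measured members below 0 and 9 of 19 counted past 2-fold lower. With cells thinned to 1000 UMIs 1 of them, Tnfaip3, was at 0.40. The inhibitor Nfkbia was at 241.4 and 76.68 CPM (-1.59) and the adaptor Traf1 at 64.41 and 11.95 CPM (-2.03). For 7 of the 9, all but Nfkb2 and Nfkbie, another class of the same library had over 5 times the tumour cell level. Cd40 was at 62.04 and 19.89 CPM (-1.43), with 42.33 in PBS, 16.46 in PD1plusCTLA4 and 57.15 in PD1plusCD40. Of the CXC chemokines (median -1.35, 7 of 8 measured below 0), Cxcl3, which attracts neutrophils, was at 209.4 and 29.63 CPM (-2.63) and Cxcl16 at 146.2 and 40.92 CPM (-1.72). The monocyte attractant Ccl2 was among the most abundant genes of this set, at 1943 and 438.7 CPM (-2.13).

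Other genes named by the size rule were not interferon genes. Vcam1, an adhesion molecule, was at 79.82 CPM (69.19 to 91.62) and 8.266 CPM (6.733 to 10.04), in 62.5% and 16.1% of cells (-2.68). Krt17, a stress keratin, was at 123.3 and 27.74 CPM (-1.97), and Il1rl1, the IL-33 receptor, at 124.1 and 28.73 CPM (-1.94). On the higher side, Selenop, a selenium carrier, was at 97.6 CPM (85.8 to 110.6) and 800.1 CPM (784.4 to 816.2), a difference of 2.97, and Gpx3, the secreted glutathione peroxidase, at 55.32 and 433.8 CPM (2.86). Ccn5, a matricellular protein, was at 13.83 and 141.2 CPM (2.96), and Fbln1, a matrix glycoprotein, at 41.88 and 163.5 CPM (1.85). S100g, a calcium-binding protein, was at 54.13 and 406.8 CPM (2.80), although 1 CD40plusCTLA4 cell held 38.7% of its UMIs there. Bcl2, which restrains apoptosis, was at 25.68 and 82.17 CPM (1.51).

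The remaining 3 libraries also took sides on all 16 genes of that rule. For the 8 higher and the 8 lower genes alike, PBS and PD1plusCTLA4 tumour cells were nearer Triplet in 8 of 8, and PD1plusCD40 tumour cells were nearer CD40plusCTLA4 in 8 of 8. Selenop, for example, was at 1566 CPM in PBS, 869.4 in PD1plusCTLA4 and 132.7 in PD1plusCD40, and Vcam1 at 4.022, 4.321 and 74.16 CPM. The same division held for the number of tumour cells, 747 and 1678 in PBS and PD1plusCTLA4 against 60 in PD1plusCD40 (738 of the PBS cells lay in a cluster of their own), and for the share of unnamed barcodes, 38.9% and 21.0% against 67.2%. Whether cell number and background RNA had a part in the gene differences was not tested.

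Cell cycle, oxidative phosphorylation and the unfolded protein response stood near the class median, at -0.02, -0.04 and 0.01, with 0 members past 2-fold among 34, 20 and 20 counted. Mki67, a proliferation marker, was at 103.5 and 103.0 CPM, a ratio of 0.871 to 1.14. Glycolysis and hypoxia genes were lower (median -0.51, 23 of 28 measured below 0), and past 2-fold were Bnip3 at 165.2 and 67.35 CPM (-1.23), Adm and Ankrd37. The keratins that mark these cells were not lower: Krt8 was at 857.8 and 1002 CPM (0.22) and Krt18 at 535.0 and 869.0 CPM (0.70).

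**Figure D1:**
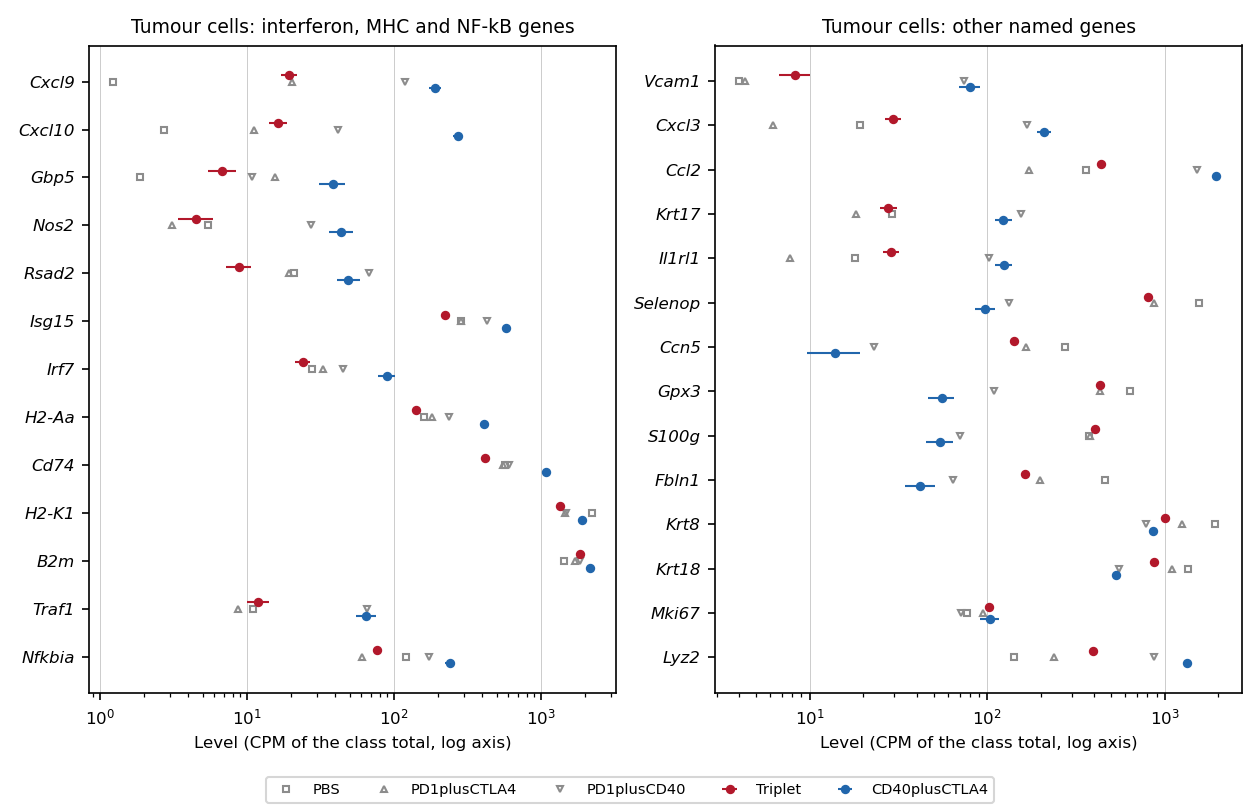
Levels of named genes in tumour cells (x axis, CPM of the class total, log scale; bars, 95% counting intervals for the libraries compared) in each of the 5 libraries. Isg15 lay at 223.6 CPM in Triplet and 581.2 in CD40plusCTLA4, Selenop at 800.1 and 97.6, and on both panels the PD1plusCD40 marks lie mostly beside those of CD40plusCTLA4.

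Among T cells the Treg-like share was close, the naive or memory share was higher in Triplet, and named genes that differed included chemokines, memory-type genes, Pdcd1 and cycling genes. There were 391 and 1176 T cells, with all 15 T cell markers detected in both libraries. Phagocyte markers summed to 1266 and 973.7 CPM in them. Of 6068 counted genes, 43 (0.709%) were past 2-fold higher in Triplet and 30 (0.494%) lower, with a median of 0.01.

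Regulatory (Treg-like) cells were 47.1% (42.0 to 52.1%) and 46.5% (43.6 to 49.4%) of T cells, and conventional CD4 T-like cells 18.2% (14.5 to 22.3%) and 20.8% (18.5 to 23.3%). CD8 T-like cells were 8.95% (6.31 to 12.2%) and 6.21% (4.9 to 7.74%). In these 3 classes the intervals overlap, but not under every alternative. CD8 T-like intervals separate in 4 of 5, for example 12.1% (8.99 to 15.7%) and 5.88% (4.6 to 7.38%) at a clustering resolution of 2. With clusters made from the compared libraries alone the Treg-like shares were 51.5% (45.7 to 57.2%) and 38.4% (35.3 to 41.6%). Naive or memory T-like cells were 4.09% (2.36 to 6.56%) and 11.6% (9.87 to 13.6%). That class is the cluster led by Lef1, Dapl1 and Tcf7, so its share and the level of those genes are 1 observation, and with clusters made from the compared libraries alone no cluster took its name. The transcription factor Lef1 was at 91.45 and 184.3 CPM (0.97), S1pr1, which lets T cells leave tissue, at 67.85 and 147.5 CPM (1.07), and the quiescence-linked factor Klf3 at 22.86 and 63.52 CPM (1.30). The naive and memory list had a median of 0.36 (10 of 14 measured above 0), with S1pr1 past 2-fold higher and Ly6c1 past 2-fold lower; its median was -0.10 with the compared libraries clustered alone.

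Pdcd1, the gene of the receptor that anti-PD-1 binds, was at 175.5 CPM (153.9 to 199.3) and 103.9 CPM (94.37 to 114.2), a difference of -0.73 and a ratio of 0.504 to 0.697. It was found in 25.1% and 15.8% of T cells, and after thinning each cell to 1000 UMIs in 13.1% (9.85 to 16.9%) and 6.49% (5.14 to 8.07%). In phagocytes thinned alike it was found in 0.0488% and 0.0855%. Over all T cells the difference did not reach 2-fold. Its sign was shared by these T cell classes: 153.2 and 90.61 CPM in Treg-like cells (-0.73), 184.6 and 137.9 CPM in conventional CD4 T-like cells, and 414.2 and 166.4 CPM in CD8 T-like cells. In the CD8 T-like cells Pdcd1 was past 2-fold lower (-1.29). PBS T cells had 171.4 CPM, PD1plusCTLA4 132.5 and PD1plusCD40 173.8, so over all T cells Triplet was the lowest of the 5 libraries. Within classes it was not always: PD1plusCTLA4 had 57.7 CPM in Treg-like cells, and PBS and PD1plusCTLA4 had 65.78 and 88.31 CPM in conventional CD4 T-like cells. Ctla4, by contrast, was at 314.2 and 327.9 CPM (0.06, ratio 0.936 to 1.17) and Cd274 at 111.4 and 110.4 CPM. Cd40lg, the ligand of CD40 on helper T cells, was at 22.86 and 49.8 CPM (0.98).

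Inhibitory receptor and exhaustion genes had a median of 0.29, with 17 of 23 measured above 0; only Nr4a3, a nuclear receptor induced by T cell receptor signals, was past 2-fold among 19 counted, at 6.637 and 22.13 CPM. Early genes of T cell receptor signalling had a median of 0.29 (12 of 17 above 0), with Nr4a3 and Xcl1 past 2-fold. Xcl1 recruits cross-presenting dendritic cells and was at 266.2 CPM (239.5 to 295.2) and 603.9 CPM (580.5 to 628.0), a difference of 1.17; it was found in 47 of 391 and 94 of 1176 T cells.

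T cell chemokines and cytokines were carried by few cells. Ccl4, a chemokine of activated T cells, was at 15.49 and 196.1 CPM (3.30), in 3.58% and 6.55% of cells; 1 Triplet cell held much of its RNA, and without that cell Triplet stood at 129.7 CPM. Ccl1, a ligand of CCR8, was at 98.82 and 460.3 CPM (2.16), with 38.8% and 27.6% of UMIs in 1 cell. Csf2, at 2.95 and 49.56 CPM, rested on 1 Triplet cell that held 90.3% of its UMIs, and without that cell Triplet stood at 4.824 CPM. Il2, the T cell growth factor, was spread more widely: 4 UMIs in 3 cells and 105 UMIs in 55 cells, a ratio of 3.25 to 32.0. In conventional CD4 T-like cells Il2 had 0 UMIs in 71 cells, which allows up to 19.1 CPM, and 43 UMIs in 35 of 245 cells (59.89 CPM). The interval of the ratio there starts at 2.44 and has no upper end.

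CD8 T-like cells were few, 35 and 73, and the genes given for them were chosen after their values were seen. They fell in cluster T6 (18 and 20 cells) and cluster T11 (17 and 53 cells). Xcl1 was at 577.5 and 4167 CPM (2.84), found in 14 and 24 cells, with 23.2% and 27.6% of UMIs in 1 cell; without that cell it stood at 456.9 and 3234 CPM. The gap lay in cluster T6, at 848.6 and 8444 CPM, while T11 had 51.46 and 94.31 CPM. Interferon-gamma (Ifng) was at 105.0 and 617.2 CPM, but 1 Triplet cell held 69.1% of its UMIs, and without the leading cell the levels were 92.49 and 194.5 CPM. Ccl4 was likewise at 64.17 and 1283 CPM, or 53.32 and 552.0 CPM without the leading cell. Its gap lay in T6, on 1 and 466 UMIs, while T11 went the other way at 171.5 and 62.87 CPM. Pdcd1 went the other way, with a ratio of 0.281 to 0.573, and in T6 alone it was at 583.4 and 313.5 CPM. Cd8a was level at 449.2 and 461.6 CPM, and the effector protease Gzmb was at 180.8 and 107.3 CPM. Gzmb was at 514.6 and 162.4 CPM in T11 but at 8.84 and 49.51 CPM in T6, on 1 and 9 UMIs. Over all T cells Ifng was at 73.01 and 95.76 CPM, or 58.06 and 57.61 CPM without the leading cell.

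Cycling and metabolic genes of T cells were lower in Triplet by modest amounts. Of the 35 cell cycle genes 34 were below 0 (median -0.39), against 12 of 21 measured in Treg-like cells alone (median -0.02). Cluster T2, led by T cell and histone genes, held 46 of the 391 and 64 of the 1176 T cells. Over all T cells Mki67 was at 153.4 and 106.8 CPM (-0.50), and only Rrm2, a ribonucleotide reductase subunit, was past 2-fold, at 85.55 and 34.65 CPM (-1.19). Glycolysis and hypoxia genes had a median of -0.39 (19 of 26 below 0), with Tpi1 past 2-fold, and oxidative phosphorylation genes a median of -0.23 (17 of 20 below 0). Cytotoxicity genes were mixed (median -0.09, 5 of 16 measured above 0), with Gzma past 2-fold higher and Gzmc and Klrk1 past 2-fold lower among 12 counted. The activating receptor Klrk1 was at 90.71 and 37.53 CPM (-1.17), and Klra5, of the Ly49 family, at 53.1 and 12.03 CPM (-1.77, but 0.17 with clusters from the compared libraries alone). Ly6a, the Sca-1 antigen that interferon induces, was at 781.0 and 340.4 CPM (-1.19). The interferon-gamma and type I interferon lists had medians of 0.06 and -0.08 in T cells, unlike in tumour cells.

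The gene furthest above 0 by the size rule was Cdk8, a Mediator kinase, at 356.9 and 1044 CPM (1.54). Its level among the empty barcodes of the CD40plusCTLA4 library was 869.5 CPM, above that of the T cells, and in PBS T cells it was 3441 CPM. What sets this gene's level was not tested. Among the 8 higher and 8 lower genes of that rule in T cells, PD1plusCD40 was nearer Triplet in 3 and 4, PD1plusCTLA4 in 6 and 5, and PBS in 6 and 5.

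Treg-like cells numbered 184 and 547, and 110 of 4867 counted genes (2.26%) were past 2-fold higher and 26 (0.534%) lower, with a median of 0.09. The identity genes stood close: Foxp3, the lineage factor, was at 208.1 and 264.6 CPM (0.34) and Ctla4 at 605.9 and 585.9 CPM (-0.05). Of 18 measured regulatory genes 13 were below 0 (median -0.28) and 0 were past 2-fold. Activation receptors were lower without reaching 2-fold: Tnfrsf9 (4-1BB) was at 697.4 and 405.3 CPM (-0.78), Tnfrsf4 (OX40) at 1198 and 826.3 CPM (-0.53) and Il2ra (CD25) at 455.0 and 306.9 CPM (-0.56). Past 2-fold lower were Ly6a, at 1525 and 564.8 CPM (-1.43), Bhlhe40, a transcription factor of activated T cells, at 169.2 and 61.01 CPM (-1.40), and Il7r, the IL-7 receptor, at 759.1 and 360.0 CPM (-1.07). Higher was Itga4, an integrin chain used for homing, at 59.45 and 199.3 CPM (1.67). Of the inhibitory and exhaustion genes (median 0.29, 13 of 18 above 0), Lag3, Nr4a2 and Nr4a3 were past 2-fold higher, but on 7, 6 and 4 CD40plusCTLA4 UMIs; Lag3 was at 16.01 CPM (6.435 to 32.98) and 37.45 CPM (28.71 to 48.01).

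**Figure D2:**
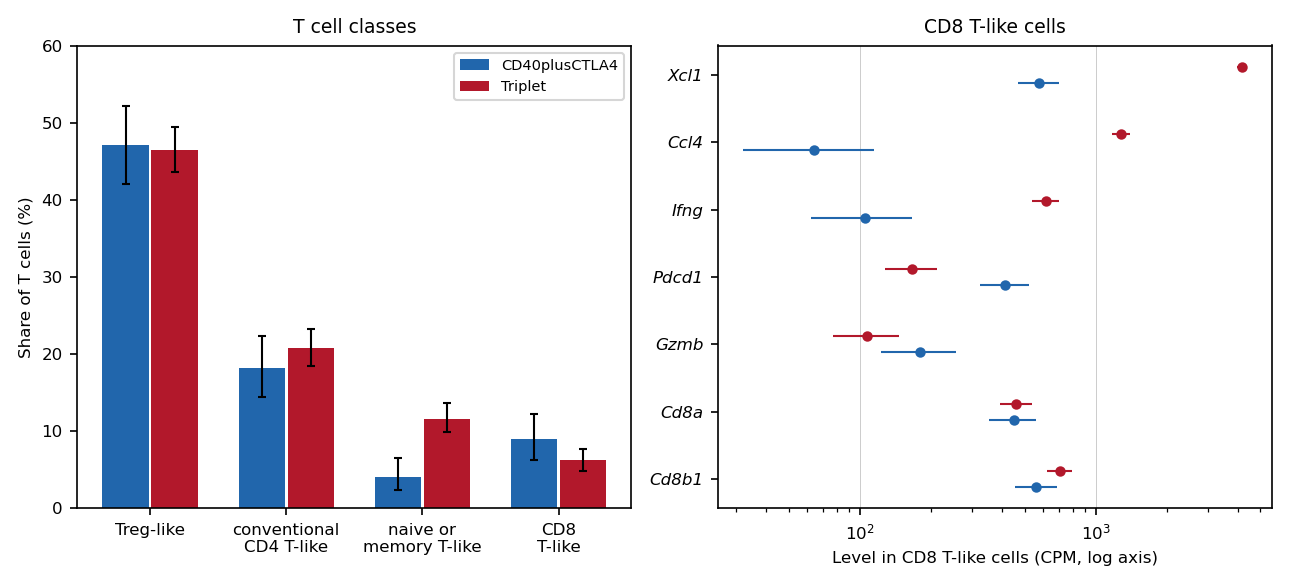
Left, share of each library's T cells in 4 classes (bars from 0, with 95% binomial intervals); right, levels of 7 genes in CD8 T-like cells (CPM, log axis, with 95% counting intervals). The Treg-like share was 47.1% and 46.5%, and in CD8 T-like cells Xcl1 lay at 577.5 and 4167 CPM while Cd8a lay at 449.2 and 461.6.

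Named phagocytes of the Triplet library held cells with genes of alternatively activated and resident macrophages that were rare among those of CD40plusCTLA4. Some dendritic cell genes were higher as well. The named phagocytes numbered 4137 and 2345 cells. Of 5986 counted genes, 65 (1.09%) were past 2-fold higher in Triplet and 6 (0.1%) lower, with a median of 0.11. Of the 6, all but Hmox1 (namely Fxyd2, Hp, Il4i1, Plac8 and S100a9) were over 5 times higher in another class of the same library. Scaling by trimmed mean of M-values (TMM) moves every log2 difference in this class by -0.229 and gives 32 higher and 23 lower, so list medians between 0 and 0.229 change sign under it.

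The libraries filled different phagocyte clusters. Clusters M8, M9 and M10 held 5, 10 and 11 CD40plusCTLA4 cells and 246, 395 and 255 Triplet cells. Mucl1, Ear2, Fn1, Retnla, Ccl8 and Mrc1 are among the genes that lead them. Their dendritic and phagocyte marker scores were 0.168 and 0.173 in M8, 0.168 and 0.228 in M9, and 0.0876 and 0.468 in M10. Ear2 is also among the leading genes of the dendritic cluster M6. Clusters that stayed unnamed, and so were not compared, also had resident-type genes among their leading genes. L8, led by Ccl8, C1qc and Mrc1, held 190 and 292 cells, M0, led by Cbr2, 44 and 45, and L29 165 and 0. The shallow cluster L18, with Ccl12, Ctsk, Acp5 and Ccl8 among its leading genes, held 2060 and 8. The alternative activation and resident list had a median of 0.97, with 27 of 29 measured above 0 and 10 of 20 counted past 2-fold higher. Of the type 1 dendritic list 2 of 7 counted were past 2-fold higher, Batf3 (1.55) and Cd24a (1.46). Of the type 2 dendritic list it was 2 of 12, Cd209a (2.43) and Mgl2, which is in the alternative activation list too. Retnla, a resistin-like protein induced by IL-4, was at 0.8995 CPM in 2 cells and 111.5 CPM in 94 cells. Ear2, an eosinophil-associated ribonuclease, was at 3.562 and 136.4 CPM (4.05), in 1.86% and 33.0% of cells. Fcrls, an Fc receptor-like protein of resident macrophages, was at 17.9 and 144.7 CPM (2.71), and the mannose receptor Mrc1 at 223.4 and 439.5 CPM (0.96). Ear2 was at 82.97 CPM in PBS, 229.0 in PD1plusCTLA4 and 5.437 in PD1plusCD40. For the 8 genes higher by the size rule PD1plusCD40 was nearer CD40plusCTLA4 in 8 of 8, PD1plusCTLA4 was nearer Triplet in 7 and PBS in 5. For the 8 lower genes PD1plusCTLA4 was nearer Triplet in 7, while PD1plusCD40 and PBS each split 4 and 4.

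The comparison within clusters differed from that over the class. Each of 11 clusters held at least 40 cells of both libraries, 3937 and 1362 cells in all, and with these weighted equally the alternative activation list had a median of -0.07. Mrc1 was higher in 4 and lower in 7 of the 11 clusters (median -0.05), Cbr2 lower in 10 and Selenop lower in 9. The chemokine Ccl8, at 376.7 and 774.8 CPM over the class, was lower in 10 of 11 clusters (median -1.02). Ear2 was higher in 10 of the 11 (median 0.62, 6 intervals above 1). Ccdc162 was the exception on the higher side, at 69.19 and 221.8 CPM over the class (1.61) and higher in 10 of 11 clusters with a median of 1.56.

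Several genes were lower in every shared cluster. Among them was S100a9, which marks neutrophils (median -1.795, range -3.43 to -0.92, each interval below 1). The part of background RNA in these differences was not tested. Hmox1, the haem oxygenase, was at 234.5 and 101.6 CPM (-1.17) and lower in 11 of 11 clusters (range -2.19 to -0.07). Lyz1, a lysozyme, was at 385.9 and 219.4 CPM (-0.80) and lower in 11 of 11, each interval below 1 (-3.18 to -0.74). Acp5, the tartrate-resistant phosphatase of osteoclasts, was at 1693 and 1098 CPM (-0.62), Ddt, a relative of the cytokine MIF, at 270.7 and 135.0 CPM (-0.98), and Plac8, a monocyte gene, at 158.1 and 68.9 CPM (-1.14); each was lower in 11 of 11. Folr2, a folate receptor of resident macrophages, was level over the class at 62.45 and 65.32 CPM yet lower in 11 of 11 clusters (median -0.68).

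**Figure D3:**
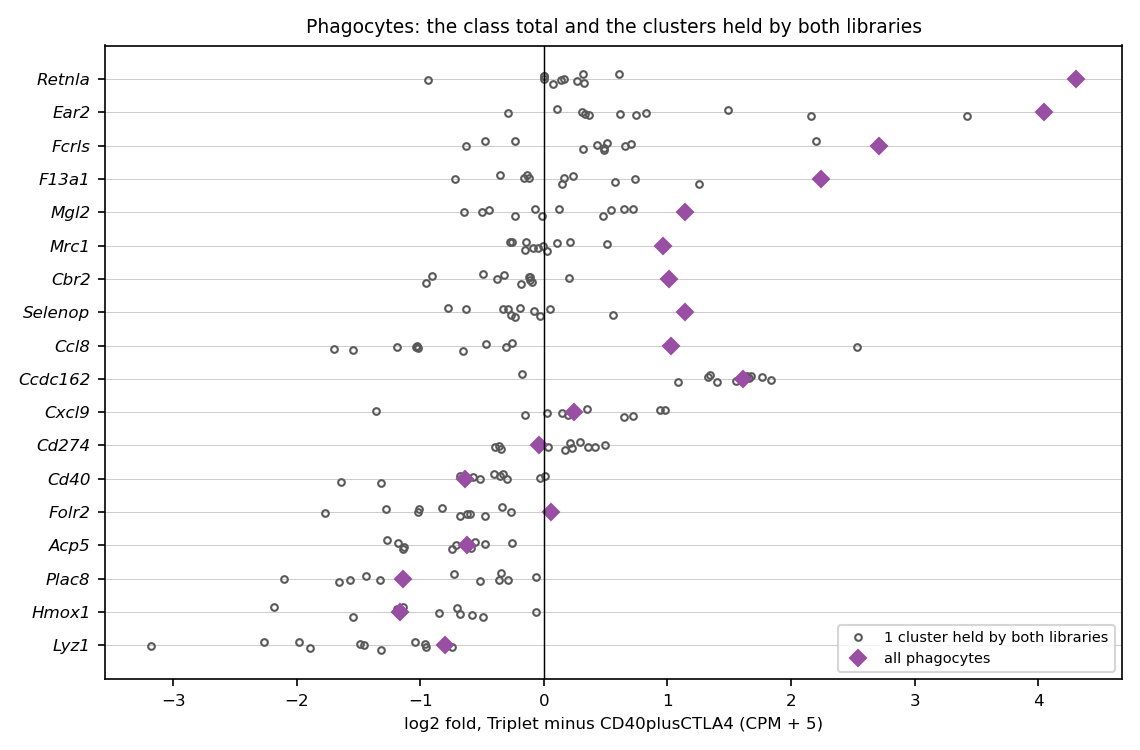
log2 difference (x axis, CPM + 5) of 18 genes in phagocytes; diamonds are the class total and open circles the 11 clusters held by both libraries. Retnla, Ear2 and Ccl8 lie at 4.30, 4.05 and 1.03 over the class with most clusters well below that, whereas every circle of Lyz1 and Hmox1 lies below 0.

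Over the class total, interferon and antigen-presentation genes of phagocytes were little displaced, with 0 members past 2-fold in either direction. The interferon-gamma list had a median of -0.02 (14 above 0, 18 below), type I interferon -0.13 (26 of 31 below 0), MHC class I -0.14 and MHC class II 0.10. Cxcl9 was at 201.3 and 239.4 CPM (0.24) and Cxcl10 at 326.3 and 270.4 CPM (-0.27), against the much larger gaps in tumour cells. Single clusters moved further and in both directions. Over the 11 shared clusters Cxcl10 ranged from -2.14 to 1.11, with 6 intervals above 1 and 5 below. Cxcl9 ranged from -1.36 to 0.98 (6 above, 1 below) and Isg15 from -1.84 to 0.105 (1 above, 4 below). NF-kB and CD40 targets had a median of -0.04. Cd40, the receptor that the shared agonist binds, was at 46.97 and 28.41 CPM (-0.64) and lower in 10 of 11 clusters. PD-L1 (Cd274) was at 57.07 and 55.32 CPM, a ratio of 0.917 to 1.02. Il4i1, an amino acid oxidase of antigen-presenting cells, was at 27.0 and 5.601 CPM (-1.59) and lower in 10 of 11 clusters. Cell cycle genes were above 0 in 31 of 35 (median 0.31, or 0.07 over the shared clusters), and Mki67, which also leads cluster M8, was at 118.3 and 185.7 CPM (0.63).

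Dendritic cells numbered 149 and 154, but different clusters held them. The cluster led by Ccr7 and Fscn1 (mature dendritic cells, M1) held 146 and 44 cells, the cluster led by Cd209a (M6) 3 and 104, and the cluster led by Xcr1 and Clec9a (M2) 0 and 6. Cluster M23 stayed unnamed and was not compared, and it held 255 and 49 cells. Its dendritic score was 0.184 and its phagocyte score 0.141, and Epcam, Asgr2 and Ccl17 are among the leading genes of both M23 and M6. The dendritic cell numbers therefore depend on which clusters could be named. Over the class 874 of 5952 counted genes (14.7%) were past 2-fold higher and 346 (5.81%) lower, or 610 and 529 with TMM, which moves the differences by -0.246; these counts set libraries with different clusters against each other. The comparison below is of cluster M1 alone.

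In mature dendritic cells 124 of 4233 counted genes (2.93%) were past 2-fold higher and 81 (1.91%) lower, with a median of -0.06 (TMM moves the differences by -0.152). Of the interferon-gamma response genes 9 of 20 counted were past 2-fold higher and 0 lower, and 14 of 23 measured were above 0 (median 0.75). The 9 were Cxcl9, Gbp2, Gbp2b, Gbp3, Gbp4, Gbp5, Gbp8, Irgm1 and Ifi47. Macrophage-type genes were higher as well. Past 2-fold were 4 of 7 counted alternative activation genes (Mrc1, Ccl8, Selenop and Maf) and 4 of 9 CC chemokines (Ccl2, Ccl7, Ccl8 and Ccl12). For 4 of those 7 and 2 of those 9 another class of the same library had over 5 times the level. Gbp5 was at 99.76 CPM (84.33 to 117.2) and 221.7 CPM (182.5 to 266.8), in 55.5% and 59.1% of cells (1.11). Cxcl9 was at 72.12 and 233.6 CPM (1.63), with 43.2% of the Triplet UMIs in 1 cell; without the leading cell it stood at 59.41 and 135.7 CPM. The median of this list was -0.02 with clusters made from the compared libraries alone and -0.03 with cells thinned to 1000 UMIs, so its direction was not stable. The same list was lower in Triplet in tumour cells.

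Il12b, the p40 chain of IL-12, which drives interferon-gamma production by T cells, was at 122.7 CPM (105.5 to 141.8) and 702.7 CPM (631.5 to 779.7), a difference of 2.47. A single Triplet cell held 45.6% of its UMIs; without the leading cell the levels were 101.0 and 394.3 CPM. It was found in 42 of 146 cells (28.8%) and 14 of 44 (31.8%), so the share of cells was close and the level per carrying cell differed. Tnf was at 15.5 and 69.28 CPM (1.86), in 11.6% and 38.6% of cells. Map3k14, the NF-kB-inducing kinase downstream of CD40, was at 31.68 and 174.2 CPM (2.29), in 24.7% and 56.8% of cells, with 196.6, 302.0 and 49.72 CPM in PBS, PD1plusCTLA4 and PD1plusCD40. Dpp4, a surface peptidase, was at 24.26 and 136.6 CPM (2.27).

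Maturation genes were level or lower. Their median was -0.13, with 18 of 26 below 0, Il12b past 2-fold higher and Ccl17 and Cd70 past 2-fold lower. The chemokines for CCR4+ cells, Ccl17 and Ccl22, were at 3887 and 1750.0 CPM (-1.15) and at 4765 and 2902 CPM (-0.71). Cd70, the ligand of CD27 on T cells, was at 92.34 and 41.57 CPM (-1.06). Ccr7 was at 972.6 and 1008 CPM (0.05, below 0 with TMM), and PD-L1 (Cd274) at 445.5 and 405.8 CPM (ratio 0.775 to 1.07). CD80 (Cd80) was at 183.3 and 174.2 CPM (ratio 0.738 to 1.21) and CD86 (Cd86) at 374.1 and 249.4 CPM (-0.57). Phagocyte markers summed to 6131 and 5928 CPM and T cell markers to 103.1 and 192.0 CPM in these cells, and their part in the differences was not tested.

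**Figure D4:**
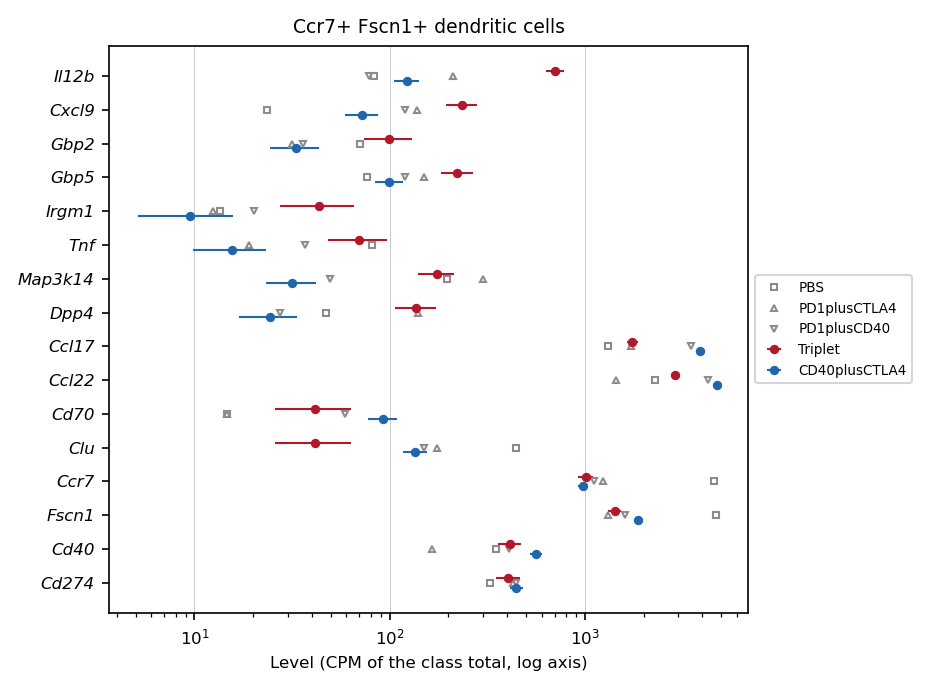
Levels of 16 genes in mature dendritic cells (x axis, CPM, log scale; bars, 95% counting intervals for the libraries compared) in each of the 5 libraries. Il12b lay at 122.7 CPM in CD40plusCTLA4 and 702.7 in Triplet, Ccl17 at 3887 and 1750.0, and the intervals of Ccr7 and Cd274 overlap.

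Neutrophils were 459 and 116 cells at median depths of 1271 and 1409.5 UMIs, the shallowest of the classes. Of 5145 counted genes, 149 (2.9%) were past 2-fold higher in Triplet and 104 (2.02%) lower, with a median of -0.003; TMM moves the differences by -0.165 and gives 76 higher and 167 lower. Neutrophil markers summed to 42203 and 29374 CPM, phagocyte markers to 25821 and 23972 CPM, and T cell markers to 86.45 and 296.1 CPM. The genes higher in Triplet included phagocyte genes: Fn1 was at 104.9 and 394.8 CPM, 62.1% and 103% of the phagocyte level, and Ear2 at 1.907 and 96.96 CPM (3.88, but -0.50 at a clustering resolution of 2 and 0.0 with phagocyte RNA subtracted). Their source was not tested.

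Type I interferon genes were lower in neutrophils of the Triplet library (median -0.75, 24 of 29 measured below 0), and 8 of 27 counted were past 2-fold lower. Isg15 was at 794.6 CPM (751.2 to 839.9) and 296.1 CPM (253.4 to 343.9), in 56.9% and 40.5% of cells, a difference of -1.41. These levels are 438% and 244% of those of phagocytes in the same library, and subtracting phagocyte RNA gave a list median of -1.18 while the median of all counted genes moved to -0.53. Isg20, an interferon-induced exonuclease, was at 115.7 and 36.36 CPM (-1.54), and Oasl2, an antiviral synthetase relative, at 125.2 and 50.21 CPM (-1.24). Isg15 was at 995.5 CPM in PBS, 232.1 in PD1plusCTLA4 and 810.6 in PD1plusCD40, so the libraries again divided as in tumour cells except for PBS.

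Granule genes were lower too (median -0.34, 23 of 28 measured below 0), with 7 of 27 counted past 2-fold lower. The markers that name the class were also lower, summing to 42203 and 29374 CPM. The part of RNA from other cells in the granule difference was not tested. The genes of immature, granule-forming cells rested on few cells. Camp, the cathelicidin precursor, had 343 UMIs in 7 of 459 cells (218.0 CPM, 43.2% of them in 1 cell) and 0 UMIs in 116 Triplet cells, which by UMI counts allows up to 5.19 CPM. Ngp had 337 UMIs in 12 cells and 2 UMIs, a ratio of 0.00195 to 0.0589. Both bounds treat UMIs as independent and do not cover the sampling of so few carrying cells, so no fold is drawn from them. The siderophore-binding Lcn2 was at 318.5 and 109.1 CPM (-1.50) and Retnlg at 1042 and 509.0 CPM (-1.03). The calprotectin chain S100a8 was at 12272 and 9660.0 CPM (-0.35), and Il1b, the interleukin-1 beta gene, at 4047 and 2370.0 CPM (-0.77). Upp1, a uridine phosphorylase, was the furthest below 0 among genes of the size rule, at 461.5 and 102.2 CPM (-2.12), in 58.2% and 29.3% of cells. For the 8 genes lower by that rule PD1plusCTLA4 neutrophils were nearer Triplet in 8 of 8 and PD1plusCD40 neutrophils nearer CD40plusCTLA4 in 8 of 8, while PBS split 4 and 4. For the 8 higher genes PD1plusCTLA4 was nearer Triplet in 6, and PBS and PD1plusCD40 were nearer CD40plusCTLA4 in 7 and 8.

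Across classes the interferon lists did not move as one. The type I list had medians of -0.80 in tumour cells and -0.75 in neutrophils, -0.13 in phagocytes and -0.08 in T cells, and 0.37 in mature dendritic cells, where 0 of 8 counted were past 2-fold. The interferon-gamma list was at -0.81 in tumour cells and at 0.75 in mature dendritic cells, where it fell just below 0 under the alternatives given above. The alternative activation list was above 0 in every class, at 0.70 in T cells (7 measured), 0.53 in tumour cells (18), 0.92 in mature dendritic cells (8) and 1.21 in neutrophils (16 of 16 above 0).

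**Figure D5:**
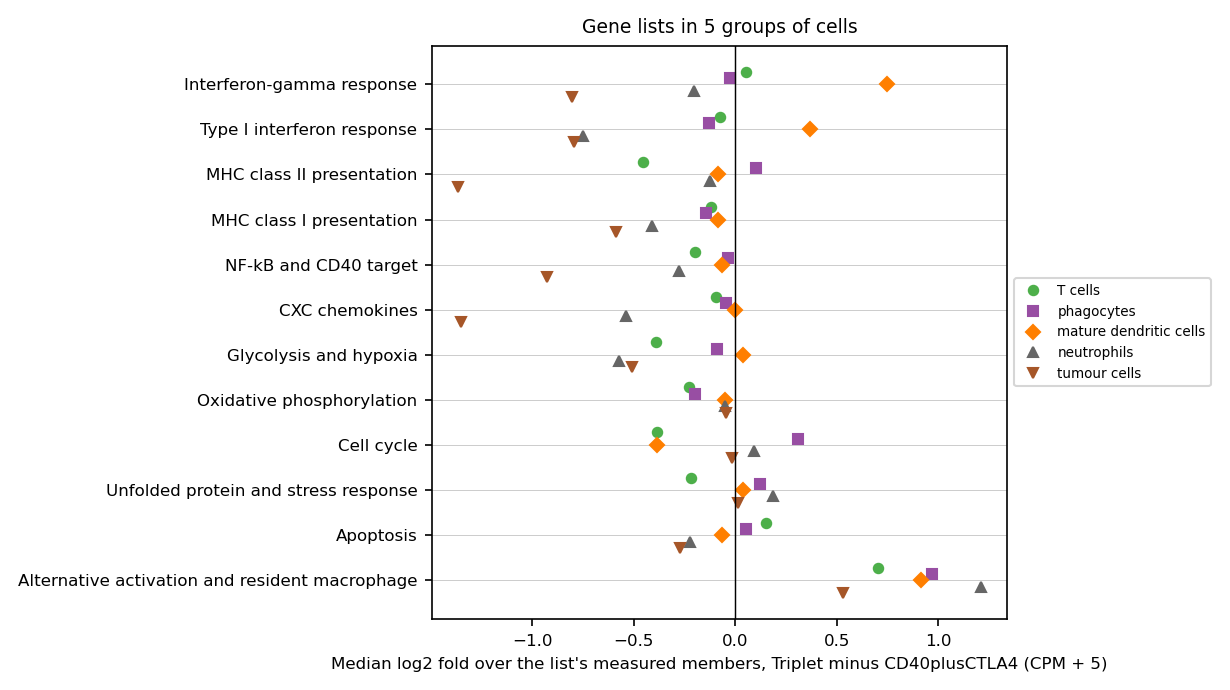
Median log2 difference (x axis, CPM + 5) of 12 gene lists in 5 groups of cells, for lists with at least 5 measured members; the line at 0 is no difference. The interferon-gamma list lies at -0.81 in tumour cells and 0.75 in mature dendritic cells (-0.018 there with the compared libraries clustered alone). The alternative activation list lies above 0 in all 5, although in phagocytes it fell just below 0 over the shared clusters.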

How the data were processed

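Single-cell 5' RNA was measured in 5 libraries, each pooling tumours of 3 mice. The deposited matrices hold UMI counts per gene and barcode; per the file headers the treated libraries were made with Cell Ranger 7.1.0 and PBS with version 4, and the submitters' processing notes name mm9. Barcodes that reached 500 UMIs and 300 genes, with no more than 10% of UMIs mitochondrial, were clustered over all libraries with Scanpy 1.11.5 (2000 variable genes, 30 components, 15 neighbours), and clusters were named from marker genes. Doublets were not removed: Scrublet marked 1 of 16389 and 4 of 4732 cells, too few to be of use. Counts were summed per class and library and scaled to the class total. Intervals are exact Poisson, Clopper-Pearson and conditional ratio intervals (SciPy 1.17.1). A share of 0 or a level of 0 was bounded by 3 counts. TMM factors came from edgeR 4.0.16. The calculation was tested on simulated data.

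Besides the fixed lists, up to 8 genes per direction and 6 per list were named, with at least 50 CPM, at least 30 UMIs, at least 10 cells, at most 20% of UMIs in 1 cell and no other class of the same library above 5 times the level. Other genes given were chosen after their values were seen. Gene lists, cell classes and the comparison itself were chosen with earlier results of these data known, and the naming thresholds were set after seeing the data. With 1 library per group there is no replicate test, and treatment, batch and library cannot be told apart. Xist and Y-linked genes were not used.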

Additional observations from a re-analysis of the deposited data

How the results depend on the processing

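Each group is 1 library, so no alternative tests a difference between treatments. Of the alternatives to the count of genes past 2-fold, 50 stayed within 1.5 times and 22 did not. In T cells (73 genes) the count was 160 with cells thinned to 1000 UMIs, 128 with no low-count filter, 132 with a pseudocount of 1 CPM and 21 with one of 20 CPM. In phagocytes (71) it was 124 thinned, 42 with clusters from the compared libraries alone, 113 and 31 with pseudocounts of 1 and 20 CPM, and 19 over the shared clusters, an alternative added after seeing the data. In dendritic cells (1220) it was 210 with minimums of 1000 UMIs and 500 genes, 414 thinned, 681 with a pseudocount of 20 CPM and 205 in the Ccr7 and Fscn1 cluster alone, also added later. In neutrophils (253) it was 161 at a clustering resolution of 2, 97 thinned, 602 with no low-count filter, 90 with a pseudocount of 20 CPM and 540 with phagocyte RNA subtracted, added later. In tumour cells (285) it was 185 thinned and 124 with a pseudocount of 20 CPM.

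The CD8 T-like share of CD40plusCTLA4 T cells was 13.9% with minimums of 1000 UMIs and 500 genes and 5.86% with clusters from the compared libraries alone. Those clusters gave 51.5% and 38.4% Treg-like cells, 14.0% and 15.2% conventional CD4 T-like cells in CD40plusCTLA4 and Triplet, and 0.0% naive or memory T-like cells in both; conventional CD4 T-like cells were 16.8% of Triplet with 1000 UMIs and 500 genes.

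Directions reversed in 16 gene values and 4 list medians, 393 and 31 moved without reversing, and 2307 and 670 moved little. Over the shared phagocyte clusters 39 of 51 genes moved, 5 reversed and 7 moved little. With the compared libraries clustered alone, T cells gave -0.10 for the naive and memory list, -0.34 for Ccl3 and 0.17 for Klra5, and mature dendritic cells gave -0.018 for the interferon-gamma list. Thinning gave -0.032 for that list, -1.903 for Ifi47 there, and 0.27 for Ifi44 and 0.40 for Tnfaip3 in tumour cells. In neutrophils Fabp5 was 0.34 with the highest doublet scores removed, 0.24 at resolution 2, 0.15 clustered alone, 0.046 with cells weighted equally and 0.20 thinned, and Ear2 was -0.50 at resolution 2. Over the shared phagocyte clusters the alternative activation list was -0.068, Mucl1 -0.24, Cbr2 -0.40, Ccl8 -0.87, Mgl2 -0.20 and Selenop -0.13. The cause was not tested for any of these. With a mitochondrial limit of 20% no neutrophil class was named, so it gave no value. No paired analysis was possible because each group is 1 library and the labels give no replicate numbers.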
